A study of Rattus norvegicus with 6 samples.

Results

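The Hox genes of clusters A to D were followed in Sprague-Dawley rats, in the lumbar part of the spinal cord, after lidocaine. Members were all genes whose single symbol in the platform's probe table was Hox, a cluster letter and a number, and where several rows of the array named a gene, the brightest over the 6 arrays was taken. This gave 33 genes of the 20530 named genes on the array, namely 8 of cluster A, 10 of cluster B, 8 of cluster C and 7 of cluster D. Other Hox genes of the RefSeq gene table were not analysed here. The lidocaine group was 3 rats given 20 µL of 10% lidocaine, a sodium channel blocker used for local anaesthesia, into the fluid space around the cord. The control group was 3 rats left untreated, so the drug and the injection itself cannot be told apart. Cord from levels L2 to L6 was frozen on day 4 after behavioural tests, and the RNA of each rat went on 1 Affymetrix array. The sources used here give no age, sex or batch.

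Hox genes encode homeodomain transcription factors that give each level of the body axis its identity. They lie in 4 clusters, and their order along a cluster, numbered by paralogue group, matches the order of the body levels at which they act: low numbers pattern the hindbrain, middle numbers the cervical and thoracic cord, and high numbers the lumbar and sacral cord and the tail. In the cord they set the columns and pools of motor neurons and shape interneuron and sensory circuits, and their expression lasts into the adult. Hox proteins bind DNA together with Pbx and Meis proteins, and Polycomb and Trithorax complexes hold the clusters off or on.

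The values are log2 RMA summary values, so 1 unit is a doubling of signal within what RMA preserves. Rows of different genes have different probes, so a level is set here against the negative control rows of the array and not against another gene. The negative controls had a median between 2.71 and 2.81 on the lidocaine arrays and between 2.65 and 2.75 on the control arrays. Their 95th percentile lay between 5.99 and 6.06 on the lidocaine arrays and between 5.79 and 5.87 on the control arrays, so this bound itself was higher in the lidocaine group. Over all transcript clusters the arrays correlated at 0.994 to 0.996 within groups and at 0.987 to 0.992 between groups. Of 8 measured transcription factors of forebrain, midbrain and cerebellum, all lay below the 95th percentile of the negative controls in both groups, as did 28 of 33 Hox genes, so this bound does not tell brain from cord. Otx2, Emx2 and Neurod6 lay below the median of the negative controls in control rats. General neuron markers averaged 8.32 to 8.67 in lidocaine rats and 8.93 to 8.98 in control rats.

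Most Hox genes gave a low signal, close to or below the upper range of the negative controls. Averaged over a group, 32 of 33 members lay above the median of the negative controls, the exception being Hoxd13, which patterns digits and the genital area, at 2.27 in lidocaine rats and 2.26 in control rats. The group mean passed the 95th percentile of the negative controls in 0 of 33 members in lidocaine rats and in 5 of 33 in control rats, Hoxa6, Hoxb8, Hoxc9, Hoxc10 and Hoxd10. Each group was set against its own bound, a mean of 6.03 in lidocaine rats and 5.84 in control rats. In lidocaine rats Hoxa6, Hoxb8, Hoxc9 and Hoxc10 averaged 5.99, 5.85, 5.95 and 5.90, above the control bound, and Hoxd10 averaged 5.57, below it. Thus 0 against 5 is not a difference in level alone. The numbers of those 5 genes run from 6 to 10, while no member of paralogues 1 to 5 or 11 to 13 passed it in either group. Other members of paralogues 6 to 10 did not pass it either, and of all 20530 genes 5698 passed it in a group. Since rows of different genes have different probes, no order of levels along the clusters is read from this. Group means of paralogues 1 to 3 lay between 3.82 and 4.94 in lidocaine rats and between 3.90 and 4.96 in control rats. Those of paralogues 4 to 8 lay between 3.43 and 5.99 in lidocaine rats and between 3.57 and 6.47 in control rats. For paralogues 9 to 11 the range was 4.21 to 5.95 in lidocaine rats and 4.42 to 6.35 in control rats, and for paralogues 12 and 13 it was 2.27 to 4.82 in lidocaine rats and 2.26 to 5.26 in control rats. RMA tends to shrink differences of dim genes, so the folds given can understate a change.

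**Figure D1:**
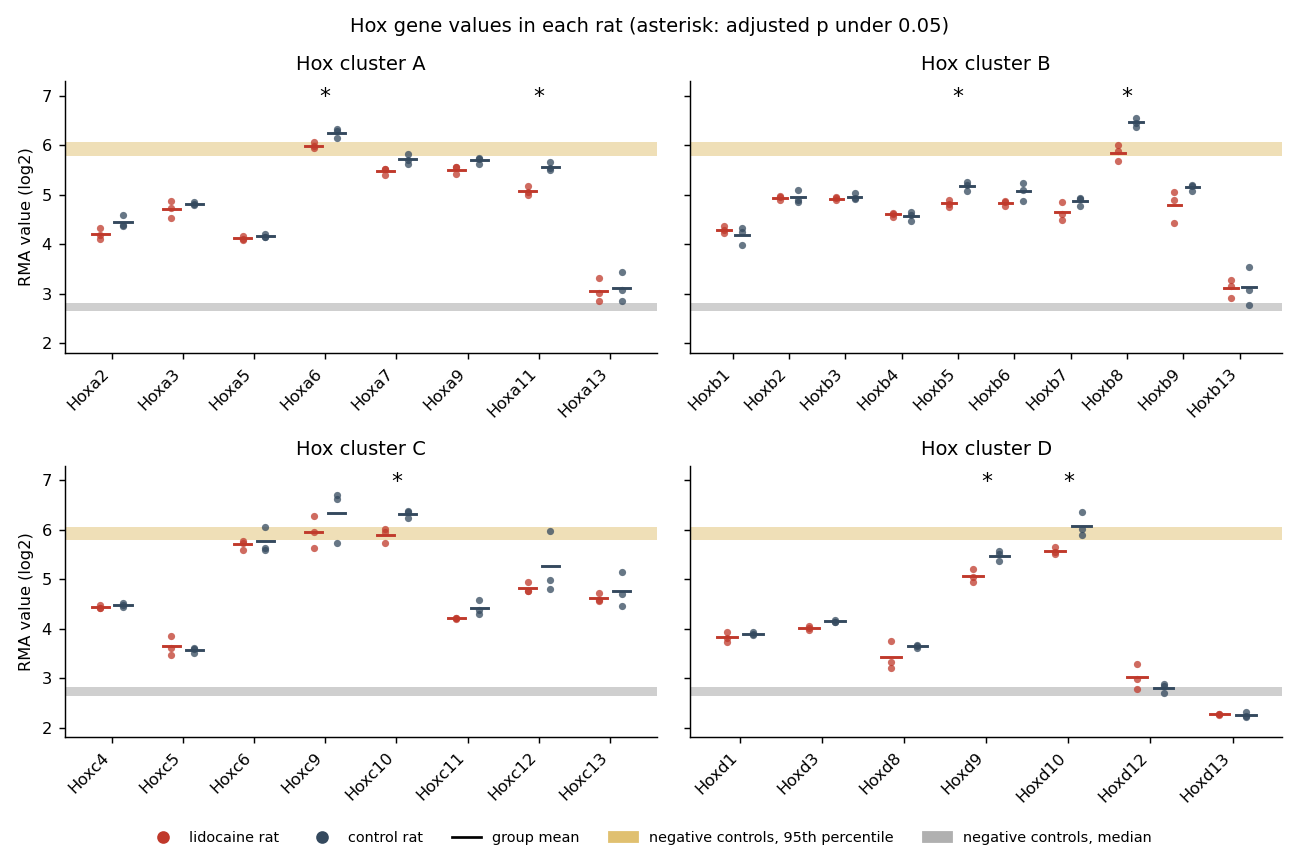
RMA value on the log2 scale (y axis) of each Hox gene (x axis, ordered by paralogue number) in each of the 6 rats, with lidocaine rats in red to the left of control rats in dark blue, horizontal bars for group means, and a panel per cluster. The yellow band is the range of the 95th percentile and the grey band that of the median of the negative controls over the 6 arrays, and asterisks mark the 7 genes with adjusted p under 0.05, in each of which every lidocaine rat lies below every control rat.

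The comparison asks how the Hox genes of the cord differed 4 days after lidocaine from the untreated cord. Of 33 members, 7 fell, 0 rose and 26 did not pass (limma, adjusted p under 0.05 over all 20530 genes). The 7 were Hoxa6, Hoxa11, Hoxb5, Hoxb8, Hoxc10, Hoxd9 and Hoxd10, with folds from 1.2 lower for Hoxa6 to 1.53 lower for Hoxb8. These are 21.2% of members, while over all genes 14% fell and 9.7% rose. Among the 5698 genes brighter than the 95th percentile of the negative controls in a group, 38.3% fell. That share is from a refit with p adjusted over those genes alone, so its threshold differs from that of the other shares. The 5 members among these passed that bound only in control rats. There their values were higher and the bound itself was lower (a mean of 5.84, against 6.03 in lidocaine rats), so how many of them fell is not read here. The count of Hox genes that fell was 4 without control rat 3 and 6 to 8 without any other single rat. In bulk tissue, fewer cells of a type and less RNA per cell cannot be told apart.

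All 3 lidocaine values lay below all 3 control values in 13 of 33 members and above them in 0, which is 39.4% and 0% of members, while over all genes it is 24.6% and 15.9%. The estimated change was negative in 28 of 33 members, against 52.2% of all genes. The median log2 change was -0.19 over the members and -0.0095 over all genes. By cluster, 2 of 8 members fell in cluster A, 2 of 10 in cluster B, 1 of 8 in cluster C and 2 of 7 in cluster D. By paralogue number, the median log2 change was -0.07 for the 7 members of paralogues 1 to 3, -0.22 for the 12 of paralogues 4 to 8, -0.40 for the 8 of paralogues 9 to 11 and -0.04 for the 6 of paralogues 12 and 13. The number that fell was 0, 3, 4 and 0 in the same order. Beside these counts by cluster and by block, 14% of all genes fell, so among so few members a count of 0 or 1 is not read. The difference between these blocks was not tested, and all 5 members above the 95th percentile of the negative controls lie in the middle blocks.

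**Figure D2:**
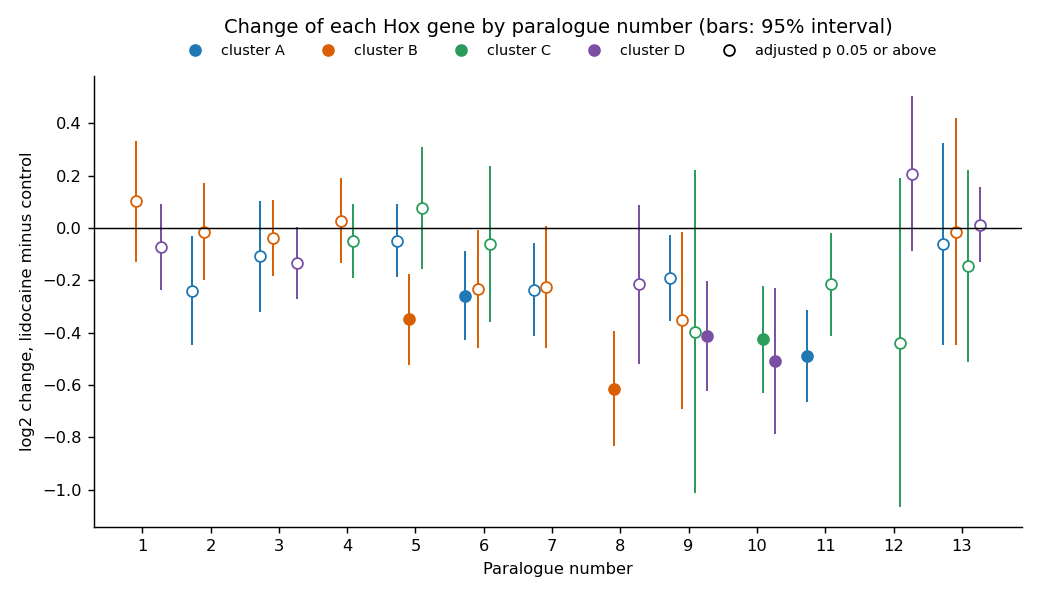
log2 change, lidocaine minus control (y axis), of the 33 Hox genes against paralogue number (x axis), coloured by cluster, with 95% intervals of the limma fit and filled points for adjusted p under 0.05. The 7 filled points lie between paralogues 5 and 11 and between -0.26 and -0.61.

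Of the lumbar-level genes, Hoxc10 and Hoxd10 are among those that in mice specify motor neurons of the lumbar cord and hindlimb. Hoxc10 had 6.01, 5.96 and 5.74 in lidocaine rats, against 6.25, 6.37 and 6.36 in control rats. Lidocaine rat 3 was the lowest and the groups did not overlap, and Hoxc10 was 1.34-fold lower (log2 change -0.43 ± 0.086 SE over 3 rats a group, adjusted p = 0.0116). Hoxd10 had 5.52, 5.66 and 5.54 in lidocaine rats, against 5.88, 6.36 and 6.01 in control rats. Control rat 2 stood above the other controls, and Hoxd10 was lower by 1.42-fold (adjusted p = 0.019, log2 change -0.51 ± 0.12 SE), and it did not pass with lidocaine rat 1 left out (adjusted p = 0.0501). Hoxa10, the other 10th paralogue of the limb and lumbar region, was not analysed here.

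Hoxa11, which patterns limbs and kidney together with its paralogues, had 5.17, 5.06 and 4.99 in lidocaine rats, against 5.54, 5.65 and 5.49 in control rats. The rats of each group lay close together and the groups were well apart, at 1.4-fold lower (log2 change -0.49 ± 0.074 SE over 3 rats a group, adjusted p = 0.00425). A dimmer row that also names Hoxa11 averaged 3.81 in lidocaine rats and 3.88 in control rats, a log2 difference of -0.06. Hoxc11 had 4.20 or 4.21 in each lidocaine rat, against 4.38, 4.59 and 4.29 in control rats. Its groups did not overlap, yet it did not pass (log2 change -0.22 ± 0.083 SE, adjusted p = 0.104). The antisense RNA Hoxa11-as, which is not a member, had group means of 3.97 in lidocaine rats and 4.01 in control rats and did not pass (adjusted p = 0.786).

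The 4 measured 9th paralogues act around the thoracic to lumbar boundary, where in mouse and chick Hoxc9 sets thoracic motor columns. Hoxd9 fell, with 5.22, 5.05 and 4.94 in lidocaine rats against 5.50, 5.37 and 5.57 in control rats (1.33-fold lower, log2 change -0.41 ± 0.089 SE over 3 rats a group, adjusted p = 0.0145). With control rat 3 left out, Hoxd9 did not pass (adjusted p = 0.0593). Hoxa9 had 5.55, 5.56 and 5.42 in lidocaine rats and 5.72, 5.75 and 5.63 in control rats, and Hoxb9 had 5.05, 4.90 and 4.44 in lidocaine rats and 5.17, 5.19 and 5.08 in control rats. Both were without overlap and short of the threshold, at log2 changes of -0.19 and -0.35 (adjusted p = 0.0843 and 0.124). The 3 rows that name Hoxa9 gave log2 changes between -0.19 and -0.22. Lidocaine rat 3 was far below the other 2 in Hoxb9, and with that rat left out its log2 change was -0.17 (adjusted p = 0.182), against -0.48 with lidocaine rat 1 left out (adjusted p = 0.0446).

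Hoxc9 was the most scattered of the 9th paralogues, with 6.27, 5.95 and 5.64 in lidocaine rats against 6.62, 5.72 and 6.70 in control rats. Control rat 2 lay about 1 unit under the other controls and inside the lidocaine range, and Hoxc9 did not pass (log2 change -0.40 ± 0.27 SE, adjusted p = 0.346). Its log2 change was -0.71 with control rat 2 left out (adjusted p = 0.0449). It was -0.26, -0.22 and -0.24 with control rat 1, control rat 3 or lidocaine rat 3 left out (adjusted p = 0.574, 0.679 and 0.632). A second, dimmer row for Hoxc9 averaged 4.82 in lidocaine rats and 4.91 in control rats. Lidocaine rat 3 was the lowest of its group in 6 of the 8 genes of paralogues 9 to 11.

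Hoxb8 had the largest fall of the family. In mice it is needed for dorsal horn circuits of touch, pain and grooming and is also expressed in progenitors of some microglia. It had 5.998, 5.88 and 5.68 in lidocaine rats, against 6.38, 6.56 and 6.46 in control rats. Every lidocaine rat was below every control rat, and the gene was 1.53-fold lower (log2 change -0.61 ± 0.094 SE over 3 rats a group, adjusted p = 0.00436). Hoxd8 had 3.33, 3.74 and 3.20 in lidocaine rats and 3.67, 3.64 and 3.61 in control rats. Lidocaine rat 2 lay above all controls, and Hoxd8 did not pass (log2 change -0.22 ± 0.13 SE, adjusted p = 0.29), and its log2 change was -0.37 with that rat left out (adjusted p = 0.0208) and -0.10 with lidocaine rat 3 left out (adjusted p = 0.618).

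Members of paralogues 4 to 7 pattern the neck, forelimb and upper thoracic levels. Hoxb5, a gene of neural crest and forelimb-level tissue, had 4.82, 4.90 and 4.76 in lidocaine rats and 5.07, 5.25 and 5.21 in control rats. The groups did not overlap and it was 1.27-fold lower (log2 change -0.35 ± 0.074 SE over 3 rats a group, adjusted p = 0.0132), and it did not pass with control rat 2 or control rat 3 left out (adjusted p = 0.0518 and 0.0549). Hoxa6 had 6.06, 5.98 and 5.94 in lidocaine rats and 6.15, 6.29 and 6.32 in control rats. Its groups lay close, and it was lower by 1.2-fold (adjusted p = 0.0355, log2 change -0.26 ± 0.072 SE). That call was lost without lidocaine rat 2 or 3 or control rat 2 or 3 (adjusted p 0.089 to 0.132). A second row for Hoxa6 moved by a log2 change of -0.22.

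Other members of this stretch did not pass. Hoxa7 had 5.52, 5.53 and 5.40 in lidocaine rats and 5.70, 5.82 and 5.62 in control rats, with no overlap (log2 change -0.24, adjusted p = 0.0573). With median centring of the arrays Hoxa7, Hoxa9, Hoxc11 and Hoxd3 also passed (adjusted p = 0.0208, 0.0275, 0.0416 and 0.0468). Hoxb6 had 4.87, 4.85 and 4.78 in lidocaine rats and 4.87, 5.24 and 5.09 in control rats, so that the groups met at control rat 1 (log2 change -0.23, adjusted p = 0.126). The log2 change of Hoxb6 was -0.33 with control rat 1 left out (adjusted p = 0.0315) and -0.15 with control rat 2 left out (adjusted p = 0.34). That of Hoxb7 was -0.23 (adjusted p = 0.147), with -0.32 when lidocaine rat 1 was left out (adjusted p = 0.0349) and -0.15 when lidocaine rat 3 was (adjusted p = 0.353). Hoxc6, which in mouse and chick marks limb motor neurons of the forelimb level, had a log2 change of -0.06 with a 95% interval of -0.36 to 0.23. Hoxa5 and Hoxc5, which in mice maintain phrenic motor neurons, had log2 changes of -0.05 and 0.08, and Hoxb4 and Hoxc4 had 0.03 and -0.05. Hoxc4 had the lowest adjusted p of these 5, at 0.614, and Hoxb4 the highest, at 0.821.

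The hindbrain-type paralogues 1 to 3 did not pass in any of 7 cases. Hoxa2, which patterns the anterior hindbrain, had 4.10, 4.19 and 4.32 in lidocaine rats and 4.38, 4.36 and 4.59 in control rats. Its groups did not overlap (log2 change -0.24 ± 0.089 SE over 3 rats a group, adjusted p = 0.0929). Hoxd3 was also without overlap, at a log2 change of -0.13 (adjusted p = 0.144). With quantile normalization both genes passed, Hoxa2 at -0.30 (adjusted p = 0.0437) and Hoxd3 at -0.21 (adjusted p = 0.0336), so the absence of falls in paralogues 1 to 3 depends on the scaling. The log2 changes of Hoxb1, Hoxb2, Hoxb3, Hoxd1 and Hoxa3 lay between -0.11 and 0.10.

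The tail-end paralogues 12 and 13 passed in 0 of 6 cases, and their controls were uneven. Hoxc12 had 4.76, 4.75 and 4.94 in lidocaine rats and 4.81, 5.98 and 4.99 in control rats. Control rat 2 alone made the log2 change of -0.44 (adjusted p = 0.305), which was -0.08 without it (adjusted p = 0.687). That rat was the highest of the 6 in 4 of the 6 genes, Hoxa13, Hoxb13, Hoxc12 and Hoxc13. Hoxd12 had 2.77, 3.29 and 2.98 in lidocaine rats and 2.85, 2.87 and 2.70 in control rats, near the median of the negative controls (log2 change 0.21, adjusted p = 0.297). The log2 changes of the 4 measured 13th paralogues lay between -0.15 and 0.01.

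The spread between rats differed widely between members. The SD over 3 rats ran from 0.0018 for Hoxc11 to 0.32 for Hoxb9 in lidocaine rats, and from 0.017 for Hoxd3 to 0.63 for Hoxc12 in control rats. The median SD was 0.0889 in lidocaine rats and 0.0937 in control rats. Averaged over the 8 genes of paralogues 9 to 11, the deviation from the control mean was -0.26, -0.34 and -0.52 on the log2 scale in lidocaine rats 1, 2 and 3. It was 0.00, -0.01 and 0.01 in control rats 1, 2 and 3. Single genes were less even: control rat 2 was the highest of the 6 rats in 6 of these 8 genes, but lay below the other controls in Hoxc9 and Hoxd9. Averaged over the 10 neuron markers, the deviations of lidocaine rats 1, 2 and 3 were -0.29, -0.39 and -0.64, the same order as for paralogues 9 to 11. For 8 motor neuron markers they were 0.0024, -0.14 and -0.35. That mean includes Mmp9, which rose by 1.38 on the log2 scale, while 4 of the 8 fell and 3 did not pass. The deviations were -0.45, -0.49 and -0.61 for 5 oligodendrocyte markers, and 0.099, 0.0041 and -0.12 for 5 astrocyte markers. The order is thus not particular to neuron markers. Nor did all Hox genes share it: over the 33 members the deviations were -0.17, -0.14 and -0.24. They were -0.11, -0.01 and -0.10 for paralogues 1 to 3, and -0.20, 0.02 and -0.04 for paralogues 12 and 13.

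**Figure D3:**
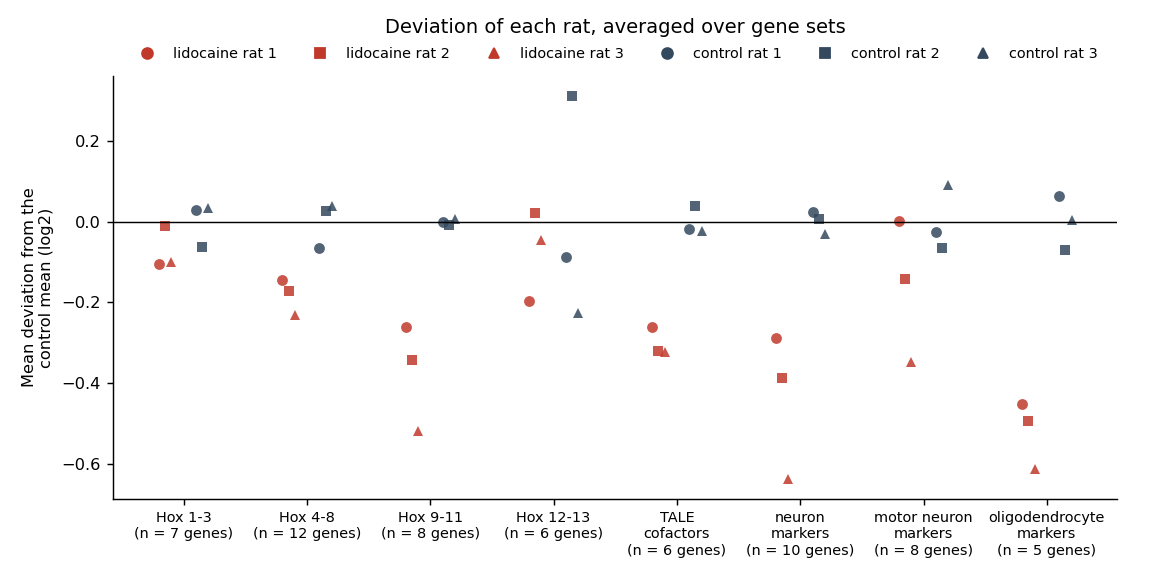
Mean deviation from the control mean on the log2 scale (y axis) over the genes of each set (x axis), with a point per rat, lidocaine in red left of control in dark blue and the marker shape giving the rat number. Lidocaine rat 3 was lowest for paralogues 4 to 8 and 9 to 11 and for the neuron markers (-0.52 for paralogues 9 to 11 and -0.64 for the neuron markers), and control rat 2 stood out at 0.31 for paralogues 12 and 13. The motor neuron set includes Mmp9, which rose by 1.38, while 4 of its 8 genes fell.

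Markers of some cell types fell as the called Hox genes did, and those of others rose. Over all genes, 14% fell and 9.7% rose. Of 10 neuron markers 8 fell and 0 rose, and of 5 measured oligodendrocyte markers 4 fell and 0 rose. Of 8 motor neuron markers 4 fell, among them Chat, the enzyme that makes acetylcholine, and 1 rose, the matrix protease Mmp9. All 8 macrophage markers rose, with list means of 6.37 to 6.57 in lidocaine rats and 4.67 to 4.73 in control rats, and all 7 measured cell cycle markers rose, with list means of 5.14 to 5.70 in lidocaine rats and 3.64 to 3.73 in control rats. Of 9 markers of meningeal fibroblasts, which also keep a Hox code, 2 rose and 2 fell, and the list means were 6.997 to 7.57 in lidocaine rats and 7.11 to 7.39 in control rats. Of the other immune lists, 5 of 6 microglia, 6 of 8 neutrophil and 2 of 7 lymphocyte markers rose and 0 fell. Of 5 astrocyte markers 1 rose and 1 fell, and of 3 ependymal markers 2 fell. No marker passed among 7 of endothelium and pericytes, 5 of Schwann cells, 6 of sensory ganglion neurons and 4 of skeletal muscle. The part of these cell types in the Hox result was not tested.

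The TALE-class homeodomain proteins that bind DNA with Hox proteins moved the same way in 2 cases. Of 6 measured cofactor genes 2 fell, 0 rose and 4 did not pass, with a median log2 change of -0.32. Beside the counts of this and the following lists, 14% of all genes fell and 9.7% rose. Pbx3, the cofactor with the largest change, had 6.83, 6.92 and 6.75 in lidocaine rats, against 7.62, 7.39 and 7.57 in control rats. It was 1.61-fold lower with groups far apart (log2 change -0.69 ± 0.082 SE over 3 rats a group, adjusted p = 0.00163). Meis2 had 5.27, 5.19 and 5.12 in lidocaine rats and 5.56, 5.50 and 5.52 in control rats, 1.26-fold lower (log2 change -0.34 ± 0.065 SE, adjusted p = 0.00967). Meis1 and Pknox2 did not overlap between groups but did not pass (log2 changes -0.34 and -0.31, adjusted p = 0.0818 and 0.0652), and Pbx4 and Meis3 had log2 changes of -0.04 and -0.08.

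Among signals and factors that set Hox expression in the embryo, 2 of 11 rose, 0 fell and 9 did not pass. Aldh1a2, which makes retinoic acid in meninges and in limb motor neurons, had 5.97, 6.17 and 6.30 in lidocaine rats, against 5.35, 5.51 and 5.01 in control rats, 1.81-fold higher (log2 change 0.86 ± 0.14 SE over 3 rats a group, adjusted p = 0.0052). The retinoic acid receptor Rara was 1.32-fold higher (adjusted p = 0.0355), but not with lidocaine rat 2 or 3 or control rat 1 or 3 left out (adjusted p up to 0.101). Rarb and Rarg, the other receptors, had log2 changes of 0.04 and 0.07, and the caudal factors Cdx2 and Cdx4 had 0.19 and 0.02, with Cdx4 below the median of the negative controls.

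Of 19 measured Polycomb genes, 1 rose, 2 fell and 16 did not pass, and of 11 measured Trithorax-group genes 0 rose and 0 fell. Ezh2, the histone H3K27 methyltransferase of dividing cells, had 4.71, 4.76 and 5.03 in lidocaine rats, against 4.37, 4.36 and 4.41 in control rats, 1.37-fold higher (log2 change 0.46 ± 0.092 SE over 3 rats a group, adjusted p = 0.0111). Ezh1, its paralogue of non-dividing cells, had 7.38, 7.16 and 7.23 in lidocaine rats and 7.50, 7.70 and 7.58 in control rats, 1.26-fold lower (adjusted p = 0.0244). The Polycomb subunit Cbx6 was 1.23-fold lower (adjusted p = 0.0398). Both falls were lost without lidocaine rat 2 or 3 or control rat 2 or 3 (adjusted p up to 0.119), and also with all transcript clusters tested. Kmt2a, the methyltransferase that keeps Hox genes on, had a log2 change of -0.03 with a 95% interval of -0.25 to 0.19.

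Of 12 genes that work with Hox factors in motor neurons, 1 rose, 2 fell and 9 did not pass. Foxp1, the accessory factor of Hox proteins in limb motor neurons that is also made by many other cell types, had 6.84, 6.71 and 6.96 in lidocaine rats, against 6.25, 6.43 and 6.36 in control rats, 1.4-fold higher (log2 change 0.49 ± 0.083 SE over 3 rats a group, adjusted p = 0.00619). Chat fell (log2 change -0.58, adjusted p = 0.0112), as did Epha4, the axon guidance receptor under Hox and Lhx1 control in limb motor neurons (log2 change -0.55, adjusted p = 0.0232), which did not pass with any 1 rat other than lidocaine rat 1 left out (adjusted p up to 0.0762). The homeodomain factors of motor neuron columns Lhx1, Lhx3, Lhx4, Isl1, Isl2 and Mnx1 did not pass, with log2 changes between -0.16 and 0.12. Over all 5 lists, 10 of 59 genes changed, 6 lower and 4 higher. Both are smaller shares than the 14% lower and 9.7% higher over all genes. Without lidocaine rat 2, without lidocaine rat 3 or without control rat 3, 6 of the 59 changed.

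**Figure D4:**
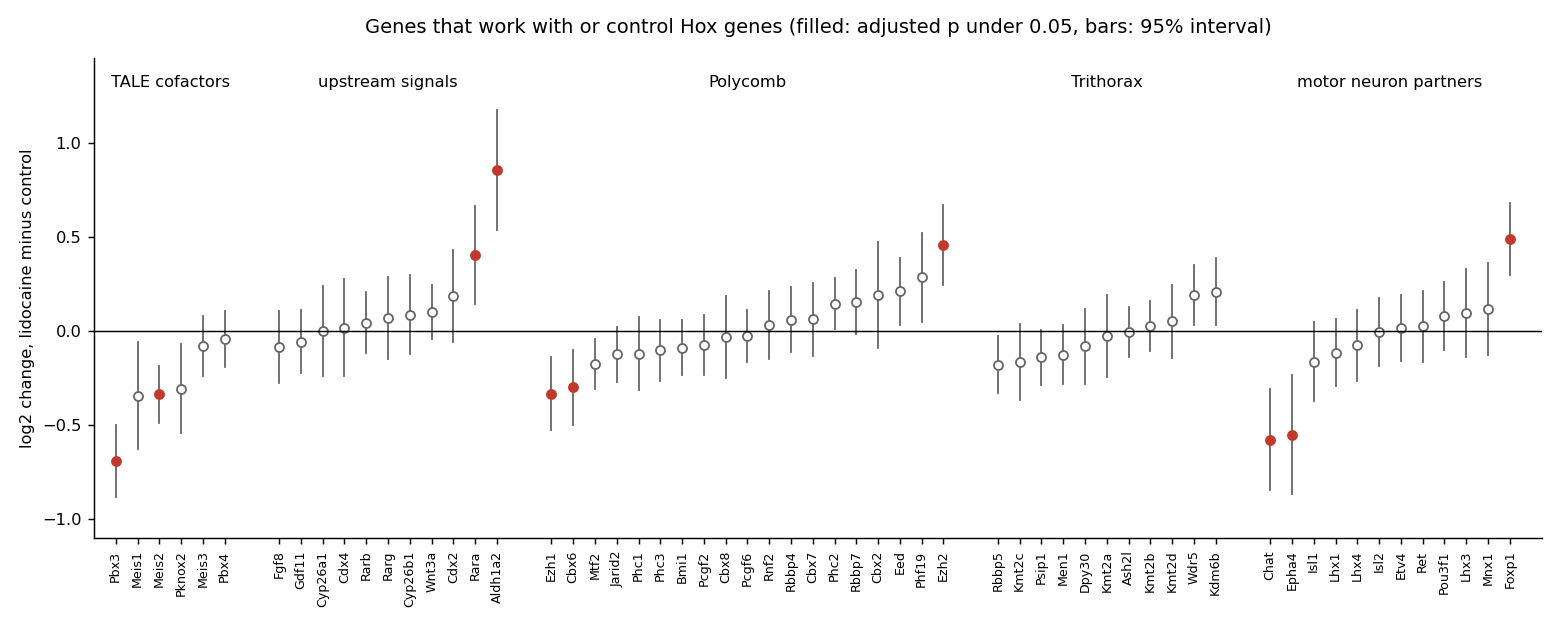
log2 change, lidocaine minus control (y axis), of 59 genes in 5 lists, sorted by change within each list along the x axis, with 95% intervals of the limma fit and filled points for adjusted p under 0.05. Pbx3 at -0.69 and Aldh1a2 at 0.86 have the largest changes, and the Trithorax list has no filled point.

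The genes next to the clusters passed in both directions, at about the shares of all genes. In the RefSeq gene table of GRCr8, the 3 nearest protein-coding genes on each side of the 4 clusters were 24 genes. Of these 22 were measured, 2 rose, 3 fell and 17 did not pass, while over all genes 9.7% rose and 14% fell. Skap2, an adaptor of leukocyte signalling beside the low-number end of cluster A, had 5.50, 5.41 and 5.40 in lidocaine rats and 4.78, 4.84 and 4.98 in control rats and rose 1.48-fold (adjusted p = 0.00228). Nfe2l2, near cluster D, encodes the oxidative stress factor NRF2 and rose 1.3-fold (adjusted p = 0.00497). Snx10, Snx11 and Atp5mc1 fell by 0.32, 0.25 and 0.26 on the log2 scale (adjusted p = 0.0338, 0.0343 and 0.016). These 3 calls were not steady: that of Snx11 was lost without any 1 rat, that of Snx10 without any 1 rat other than lidocaine rat 1, and that of Atp5mc1 without control rat 2 or with all transcript clusters tested (adjusted p = 0.0511 and 0.0609). The homeobox genes Evx1 and Evx2, which lie beyond the high-number ends of clusters A and D and in the cord mark interneurons, did not pass, at log2 changes of 0.14 and 0.05 (adjusted p = 0.333 and 0.806).

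MicroRNA genes lie inside the clusters, and those of the miR-196 family carry the same seed and target Hox messages, among them that of Hoxb8 in mice. Their mature sequences are shown because the 3 hairpin loci differ in cluster while the seed does not; they are from RefSeq, GRCr8, 5′ to 3′, with the seed (bases 2 to 8) in capitals. Mir196a lies between Hoxc10 and Hoxc9 (chr7:135988900-135988921, plus strand), Mir196b between Hoxa9 and Hoxa10 (chr4:82661149-82661170, minus strand) and Mir196c between Hoxb9 and Hoxb13 (chr10:81727561-81727582, plus strand).
rno-miR-196a-5p: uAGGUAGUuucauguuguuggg
rno-miR-196b-5p: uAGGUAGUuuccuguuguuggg
rno-miR-196c-5p: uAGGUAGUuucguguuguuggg
The array rows named for these loci measure RNA of the locus and not the mature microRNA. Mir196b had 3.92, 3.81 and 3.62 in lidocaine rats and 4.03, 4.38 and 4.09 in control rats, 1.31-fold lower (log2 change -0.39 ± 0.11 SE over 3 rats a group, adjusted p = 0.0413). The call was lost without lidocaine rat 2 or 3 or control rat 2 or 3 (adjusted p up to 0.114). Mir196c had a log2 change of 0.23 and did not pass (adjusted p = 0.161), while the rows of Mir196a and Mir10a lay below the median of the negative controls in both groups. Mir615, in cluster C, had a log2 change of -0.08 (adjusted p = 0.6). Mir10b shared its row with Hoxd4 and was not analysed here.

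RefSeq promoters, 250 bases before to 50 after the start, were at hand for 16 of the 33 members and for 4 of the 7 that fell. They are shown for those 4 since these genes, from clusters A and D, fell together. The strings run 5′ to 3′ in the direction of transcription, on GRCr8, and capitals mark matches to the letters CCAAT on either strand. The match of Hoxa11 is at the very end of its string, after the start. They span chr4:82639414-82639713, minus strand for Hoxa6, chr4:82676752-82677051, minus strand for Hoxa11, chr3:80007756-80008055, plus strand for Hoxd9 and chr3:80001697-80001996, plus strand for Hoxd10.
Hoxa6: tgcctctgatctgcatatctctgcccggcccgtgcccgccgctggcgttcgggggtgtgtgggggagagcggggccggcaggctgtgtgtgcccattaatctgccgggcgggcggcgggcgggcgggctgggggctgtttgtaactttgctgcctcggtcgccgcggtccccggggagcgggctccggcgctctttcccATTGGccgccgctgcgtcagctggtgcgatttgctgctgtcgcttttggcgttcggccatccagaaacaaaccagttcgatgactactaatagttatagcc
Hoxa11: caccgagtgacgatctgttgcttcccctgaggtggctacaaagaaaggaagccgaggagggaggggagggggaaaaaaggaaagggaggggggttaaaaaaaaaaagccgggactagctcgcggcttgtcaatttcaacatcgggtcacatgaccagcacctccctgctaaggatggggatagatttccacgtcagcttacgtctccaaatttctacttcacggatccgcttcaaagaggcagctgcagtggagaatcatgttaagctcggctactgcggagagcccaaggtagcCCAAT
Hoxd9: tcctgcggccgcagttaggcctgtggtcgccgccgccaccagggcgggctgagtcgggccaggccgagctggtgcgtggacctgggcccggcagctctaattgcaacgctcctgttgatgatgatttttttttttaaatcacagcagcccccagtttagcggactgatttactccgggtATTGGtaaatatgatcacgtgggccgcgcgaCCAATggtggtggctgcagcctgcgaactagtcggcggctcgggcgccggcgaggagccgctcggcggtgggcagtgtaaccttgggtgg
Hoxd10: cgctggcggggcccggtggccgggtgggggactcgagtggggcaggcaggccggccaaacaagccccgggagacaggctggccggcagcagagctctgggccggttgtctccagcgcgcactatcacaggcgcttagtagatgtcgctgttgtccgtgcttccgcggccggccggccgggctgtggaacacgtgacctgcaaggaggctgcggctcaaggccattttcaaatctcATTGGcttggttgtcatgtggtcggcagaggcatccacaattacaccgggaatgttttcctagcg
Of 3 motifs searched on both strands, CCAAT was found in 4 of 4 of these promoters, in 11 of the 16 Hox promoters and in 37.5% of 33465 rat promoters of the same length. The composite Pbx-Hox motif TGATNNAT was found in 0 of these 4, in 3 of the 16 and in 9.11% of all promoters, and TTTATG, the core of Cdx sites, in 0 of these 4, in 1 of the 16 and in 12.7% of all. The Pbx-Hox and TTTATG motifs had no match to overlap with CCAAT in the 4 promoters shown. The 4 promoters held 30, 13, 27 and 24 CpG dinucleotides for Hoxa6, Hoxa11, Hoxd9 and Hoxd10. The median was 22.5 in the 16 Hox promoters and 7 in all promoters, and the median GC content was 63.5% and 51.7%. A match is a description of these letters and not a measured binding site.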

How the data were processed

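RNA of the lumbar cord of 6 rats was labelled with biotin from 150 ng total RNA, per the labels' protocols, and measured on 6 arrays. The deposited values are log2 RMA summary values per transcript cluster, per the submitters' processing notes; RMA corrects background, equalises the distributions of probe values and summarises probes by median polish, which makes each change relative within its array. For the array model, the software version and the genome build the entry is: not given in the sources used here. Of 65527 rows, 63789 were transcript clusters and 1153 negative controls. The platform table named 1 gene for 21560 clusters, several for 471 and none for 41758; clusters with several were not used. Symbols were updated through gene IDs in the RefSeq table (GRCr8), which changed 1. The brightest of several rows was kept, leaving 20530 genes, 33 of them Hox genes, of which 31 carried a gene ID. Paralogues with near-identical sequence can share probes.

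Groups come from the sample titles. The titles number the samples, and each was taken as 1 rat; if any share tissue, the p-values measure technical spread. The linear model was limma 3.58.1 (lmFit, eBayes; R 4.3.3), with p-values adjusted by Benjamini-Hochberg across the 20530 genes and called under 0.05; no p is adjusted over the Hox genes alone. Errors are SEs of the moderated fit or SDs over 3 rats. The members and the 21 gene lists were chosen with earlier results of these data known. All Hox genes are named; values per rat are given for those past the threshold, for the 2 others with the largest change in each cluster and for paralogues 8 to 11. Context genes past the threshold are named, up to 4 per list and direction, as are cluster neighbours and cluster microRNA loci; Mir196c, Hoxa11-as and the other context and marker genes named were chosen after their values were seen. On simulated arrays of this comparison with all 20530 genes, 50 genes were shifted at each size. Of genes shifted by 0.25, 0.5, 1 and 2 on the log2 scale, 4%, 54%, 82% and 100% were recovered, with 6 calls among unshifted genes. Far fewer genes were shifted than the 4867 called in the data. The adjusted threshold was therefore stricter in the simulation, and its rates can be too low for the data. The replicate numbers are in the titles of both groups. Alternatives covered scaling, dim genes, row choice, prior, array weights, a replicate block and each rat left out.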

Additional observations from a re-analysis of the deposited data

How the results depend on the processing

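In every refit of all genes listed in the processing, the Hox genes called were lower and 0 were higher. The number called was 7, against 11 with median centring of the arrays, which added Hoxa7, Hoxa9, Hoxc11 and Hoxd3. With dim genes left out it was 4 of 5 tested, no separate check since those 5 passed that filter through the control rats alone; it was 4 to 8 leaving out each rat. Hoxa11, Hoxb8 and Hoxc10 were called in every such refit that tested them. Hoxa7 also passed with a trended robust prior, Hoxa9 with the mean of all rows, Hoxc11 with quantile normalization and Hoxa2 with array weights. Hoxa6 was lost with quantile normalization (adjusted p = 0.0626) and with all transcript clusters tested (0.101). The exact permutation test of a single gene cannot go below 0.1, which all 7 reached. Among 434 single Hox values recomputed, 408 kept their side of the threshold, 11 lost it and 15 passed it, with 0 called values of opposite sign. Over all genes 4867 were called, against 3003 with dim genes left out and 2754 to 4335 leaving out each rat; without control rat 2 there were 2754 and without control rat 3 there were 2906. Median centring called 4086 lower and 1761 higher genes, against 2875 and 1992. Over the 5 context lists 10 were called, and 6 to 12 leaving out each rat. Of the Hox genes, 5 lay above the 95th percentile of the negative controls in a group, 32 above their median and 0 above the 95th percentile on all 6 arrays.

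Same-numbered rats did not deviate together (correlations -0.06, -0.24 and 0.14 over genes), so the numbers were not taken as pairs. With the replicate block 6 Hox genes were called, Hoxa6 being lost (adjusted p = 0.0907), and 4005 of all genes. Over the context lists 8 were called, Ezh1 and Cbx6 being lost (adjusted p = 0.0613 and 0.0768), and the neighbours Atp5mc1 and Snx11 were lost too (0.0514 and 0.0567). With 3 rats a group, changes under 0.5 on the log2 scale are often missed.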
